A study of Thermothelomyces thermophilus ATCC 42464 with 6 samples.

Results

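Mtcdt-1 (MYCTH_43941) and Mtcdt-2 (MYCTH_114107) are the loci recorded as cellodextrin transporters of Myceliophthora thermophila (Thermothelomyces thermophilus ATCC 42464), a thermophilic filamentous fungus that degrades plant cell walls. Both were found by gene identifier among the 2228 genes of the deposited expression table, so they are 2 of 2228. The names were recalled from published work. The RefSeq gene table gives only the locus tags, so they could not be checked there.

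Cellulases cut cellulose outside the hypha into cellobiose and longer cellodextrins. Cellodextrin transporters are membrane proteins of the major facilitator superfamily that carry these short sugars into the cell, where a β-glucosidase splits them to glucose. In Neurospora crassa, a related fungus, transporters of the same names, CDT-1 and CDT-2, serve growth on cellulose. Transcripts of both are raised there when the fungus is given cellulose. CLR-2 is a zinc binuclear cluster transcription factor that activates cellulase genes in that species. An uptake gene that needs such an activator would be lower in a strain that lacks it.

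RNA sequencing compared 3 libraries of the wild type with 3 of a strain in which Mtclr-2 is deleted (the MtClr-2 deletion). Both strains were started on glucose, washed, and kept for 48 h on 2% (w/v) Avicel, a microcrystalline cellulose. Every library thus comes from mycelium first grown on glucose, and none was sampled on glucose for comparison. The series asks which genes MtCLR-2 regulates on cellulose. The sources used here do not say whether the 3 libraries of a strain are separate cultures, nor whether the deletion strain is 1 transformant. The p-values therefore reflect no more than the spread among these 6 libraries, and that spread may be technical. RNA came from whole mycelium, so more expressing hyphae and more transcript per hypha cannot be told apart. The Mtclr-2 locus was not analysed here, so the deletion was not checked against its own transcript.

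Levels are given in FPKM as the authors deposited them, a fragment count divided by transcript length and by the mapped fragments of the library. FPKM is per length, so levels of different genes can be set side by side. An error in the annotated length of a gene would be shared by all libraries, so replicates do not settle small gaps between genes. Depth was estimated from the spacing of low values at 13.96 to 16.63 M (1000000) fragments per wild-type library and 13.07 to 16.83 M per deletion library. These figures are rough, because only 21 to 35 low values per wild-type library and 10 to 13 per deletion library fell on the best step. For deletion replicate 2 a wider search gave 6.57 M in place of 13.07 M, with 11 low values on the step in place of 10. Libraries of 1 strain correlated at 0.994 to 0.997 across the listed genes and libraries of different strains at 0.813 to 0.817. Every gene in the table differed at least 2-fold between strain means. The transporters are therefore described among genes already selected for a difference, and a p-value for them is no independent discovery.

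Both transporters were higher in the strain lacking Mtclr-2, the direction opposite to that of an uptake gene that needs the factor. Mtcdt-2 was an abundant transcript and rose 2.21-fold in FPKM as deposited. Mtcdt-1 was near the lower end of the table in both strains and was 2.69-fold higher in the deletion strain by the ratio of mean FPKM. Both passed the test across all genes, limma on log2(FPKM + 1) with a Benjamini-Hochberg adjusted p under 0.05. Of the 2228 listed genes, 99.7% passed that test in one direction or the other and 40.4% passed it as higher in the deletion strain. Passing thus does not set the transporters apart, and the direction is that of 901 of the 2221 genes that passed.

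Mtcdt-2 stood at 108.2, 109.8 and 115.3 FPKM in wild-type replicates 1 to 3. In the deletion strain it stood at 250.7, 248.8 and 237.1 FPKM in replicates 1 to 3. The lowest deletion library was thus above the highest wild-type library by more than the whole range of either strain. The means were 111.1 ± 3.76 and 245.5 ± 7.34 FPKM (SD, n = 3 each). The log2 change was 1.14 ± 0.04 (SE), with a 95% interval of 1.05 to 1.22 and a limma adjusted p of 7.39e-10. That interval covers the spread between libraries only and not the choice of scaling. Median-of-ratios scaling gave a log2 change of 2.15, but it assumes an unchanged median gene in a table selected for differences. All 3 deletion libraries showed the direction.

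The replicate spread of Mtcdt-2 was like that of other listed genes at its level. Its coefficient of variation was 3.38% among wild-type libraries and 2.99% among deletion libraries. Among the 326 listed genes whose mean level over both strains lay within 2-fold of its own, the medians were 2.99% and 3.09%. By the depth estimate its level rested on about 3333 to 4233 fragments per wild-type library and 7177 to 9311 per deletion library. Counting error alone would then be 1.04 to 1.73% per library. Where the annotated length holds introns, the fragment numbers are upper estimates and the counting error is larger than this.

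Mtcdt-1 stood at 0.665, 0.632 and 0.484 FPKM in wild-type replicates 1 to 3, and at 1.696, 1.041 and 2.047 FPKM in deletion replicates 1 to 3. The strains did not overlap, which holds for 99.4% of the listed genes. The lowest deletion library lay closer to the highest wild-type library than to the highest deletion library. The means were 0.594 ± 0.096 and 1.59 ± 0.51 FPKM (SD, n = 3 each). The log2 change on the log2(FPKM + 1) scale was 0.69 ± 0.17 (SE), with a 95% interval of 0.31 to 1.06 and a limma adjusted p of 0.00239. At this level the added 1 is larger than the wild-type value, so the scale understates the change. With an added 0.1 the log2 change was 1.25 ± 0.30 (SE, limma adjusted p = 0.00274).

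Mtcdt-1 rested on few fragments. By the depth estimate the 3 wild-type libraries held about 16, 17 and 14 fragments of it and the 3 deletion libraries about 49, 24 and 51. These sums, 47 and 124 fragments, give a ratio of 2.76 with a 95% interval of 1.96 to 3.95 (exact, from Clopper-Pearson limits, counting error only). The fragment numbers are again upper estimates where the annotated length holds introns, and the interval is then too narrow. The 24 of deletion replicate 2 also rests on a depth of 13.07 M, for which the wider search gave 6.57 M. Counting error alone would give a coefficient of variation of 24.1 to 26.8% per wild-type library, against 16.2% seen, and 14.1 to 20.6% per deletion library, against 32.0% seen. Among the 201 listed genes within 2-fold of its mean level the median coefficients of variation were 29.8% among wild-type and 24.0% among deletion libraries. Mtcdt-1 varied less than that median in the wild type and more in the deletion strain. These genes were matched on the mean over both strains, so their level within a strain can differ from that of Mtcdt-1. Leaving out deletion replicate 2, the lowest of its strain, moved the ratio of mean FPKM to 3.15. Leaving out deletion replicate 3, the highest, moved it to 2.31.

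**Figure D1:**
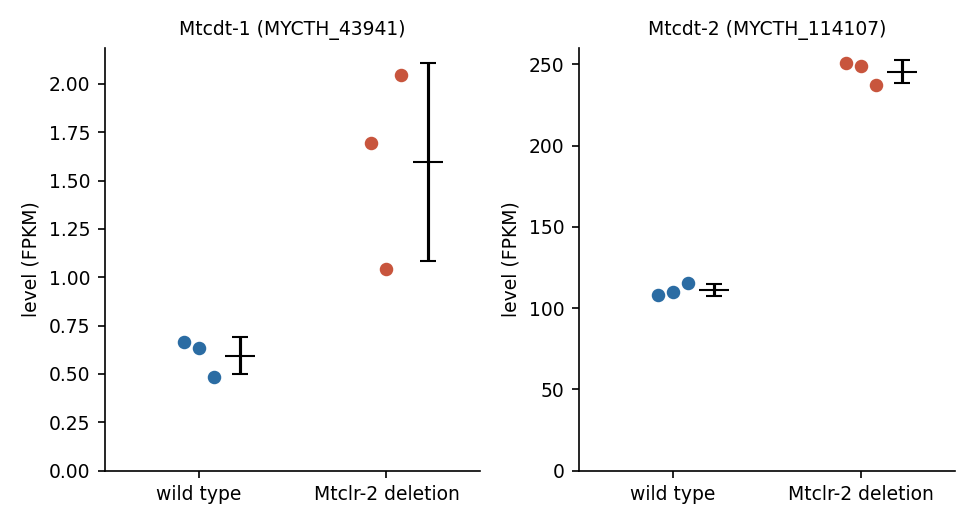
Level in FPKM (linear axes from 0, a separate scale for each gene) of Mtcdt-1 and Mtcdt-2 in the wild type (blue) and the Mtclr-2 deletion strain (red). Points are libraries, and the black bar beside them is the mean with 1 SD of 3 libraries: Mtcdt-2 separates widely, from 108.2 to 115.3 against 237.1 to 250.7 FPKM, while Mtcdt-1 separates by less than the range of its deletion libraries.

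By level the transporters lay at opposite ends of the table. Mtcdt-2 ranked 346th of 2228 listed genes in the wild type and 157th in the deletion strain, above 84.5% and 93.0% of them. Mtcdt-1 ranked 2085th and 1983rd, above 6.42% and 11.0%. These ranks describe only the listed genes, which are 24.5% of the 9097 protein-coding genes in the RefSeq gene table.

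By size of change both were modest among the genes that were higher. The 905 listed genes with a higher mean in the deletion strain had ratios from 2.00 upward, with a median of 2.94 among those above 0 in the wild type. In the order of that ratio Mtcdt-1 stood 540th and Mtcdt-2 756th of the 905. Mtcdt-2 at 2.21 is therefore toward the lower end of the ratios of these 905 genes, above 16.5% of them. Of the 326 listed genes within 2-fold of its mean level, 146 (44.8%) were higher in the deletion strain, with a median ratio of 2.76, and 112 of the 146 had a larger ratio than Mtcdt-2. Of the 201 genes within 2-fold of the mean level of Mtcdt-1, 130 (64.7%) were higher, with a median ratio of 4.20, and 108 of the 130 had a larger ratio than Mtcdt-1.

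**Figure D2:**
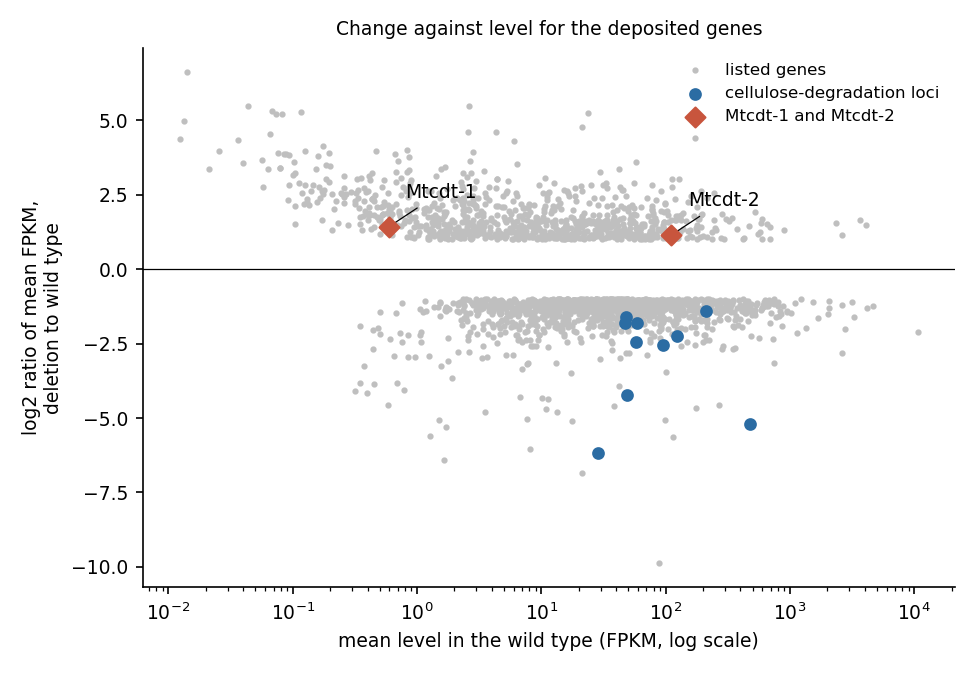
Log2 ratio of mean FPKM, deletion to wild type (vertical axis), against the mean level in the wild type in FPKM (horizontal log axis) for the 2214 listed genes above 0 in both strains (grey). The 14 genes at 0 in one strain are not drawn. Mtcdt-1 and Mtcdt-2 (red diamonds) sit above the empty band that the 2-fold selection leaves, and the 10 cellulose-degradation loci (blue) lie below it. Mtcdt-2, at a ratio of 2.21, is close to the band, and Mtcdt-1, at 2.69, is farther from it.

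Mtcdt-2 made up nearly all of the transcript of the pair in both strains. The ratio of Mtcdt-2 to Mtcdt-1 within a library does not depend on how libraries are scaled. It was 162.7, 173.8 and 238.3 in wild-type replicates 1 to 3 and 147.8, 239.0 and 115.8 in deletion replicates 1 to 3. The strains overlapped, since deletion replicate 2 had the highest ratio of the 6 libraries. The means were 192 ± 41 and 168 ± 64 (SD, n = 3 each). The mean log2 ratio differed by -0.24 between strains (two-sided p = 0.5 by exact permutation, where 3 libraries against 3 allow no p under 0.1). A change in the balance of the pair was not detected, and this does not show that both changed by the same factor.

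Mtcdt-1 accounted for 0.534% ± 0.102 of the summed wild-type level and 0.648% ± 0.221 of the summed deletion level (SD, n = 3 each). The summed level followed Mtcdt-2. It was 108.8, 110.4 and 115.8 FPKM in the wild-type libraries and 252.4, 249.8 and 239.2 FPKM in the deletion libraries. The difference of the means was 135.4 FPKM, a 2.21-fold rise with all 3 deletion libraries above all 3 wild-type libraries (two-sided p = 0.1 by the exact permutation test, its lower bound here). Mtcdt-2 was listed as higher, so this separation was largely set beforehand.

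The transporters were next set against loci that make and use the sugars they carry. Of 13 loci recalled from published work as cellulose-degrading, 10 were in the table and 3 were not analysed here. The 10 were lower in the deletion strain, by 2.65-fold to 72.6-fold, and all 10 passed the limma test as lower (adjusted p under 0.05), as did 59.2% of all listed genes. Their median log2 change was -2.29, and that over all 2228 genes was -0.97. It was already known that 9 of them fall, so this count is no independent evidence of their direction. Among the 3 most abundant in the wild type, the lytic polysaccharide monooxygenase locus MYCTH_112089, whose family cleaves cellulose oxidatively, went from 473.7 ± 8.50 to 12.8 ± 0.38 FPKM (SD, n = 3). The cellobiohydrolase locus MYCTH_66729 (cbh2), whose enzyme releases cellobiose, went from 213.1 ± 7.09 to 80.5 ± 2.96 FPKM.

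The third was MYCTH_115968 (gh1-1), recorded as a β-glucosidase. Its level was 122.7, 122.2 and 123.6 FPKM in wild-type replicates 1 to 3 and 25.0, 27.0 and 25.1 FPKM in deletion replicates 1 to 3. In the wild type it was slightly above Mtcdt-2 in every library, and in the deletion strain far below it. The ratio of Mtcdt-2 to gh1-1 was 0.882, 0.899 and 0.933 in the wild-type libraries. In the deletion libraries it was 10.04, 9.21 and 9.45. The mean log2 ratio rose by 3.40, or 10.6-fold, between strains, and the libraries of the strains lay far apart (two-sided p = 0.1 by the exact permutation test, its lower bound here). Mtcdt-2 was listed as at least 2-fold higher and gh1-1 as at least 2-fold lower. A rise of their ratio was thus set beforehand, and the test adds no support.

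The summed level of the 10 loci went from 1196 ± 19 to 195.3 ± 5.2 FPKM (SD, n = 3 each). The ratio of Mtcdt-2 to that sum was 0.0890, 0.0920 and 0.0979 in the wild-type libraries and 1.29, 1.24 and 1.24 in the deletion libraries. There was thus less Mtcdt-2 than summed enzyme transcript in every wild-type library and more in every deletion library. The ratio was 13.5-fold higher in the deletion strain. For Mtcdt-1 the same ratio was 16.0-fold higher, and its values did not overlap between strains either. Both comparisons gave p = 0.1 by the two-sided exact permutation test. The transporters were listed as higher and the 10 loci as lower, so both rises and their separation were largely set beforehand. In all 10 ratios, sums and shares were tested this way. After Benjamini-Hochberg adjustment of the exact permutation p-values over the 10, the ratio within the pair and the share of Mtcdt-1 in its sum, which are 1 comparison in 2 forms, stood at 0.5 and the other 8 at 0.125. The direction of those 8 largely followed from the 2-fold selection of the table, so they are no independent support.

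**Figure D3:**
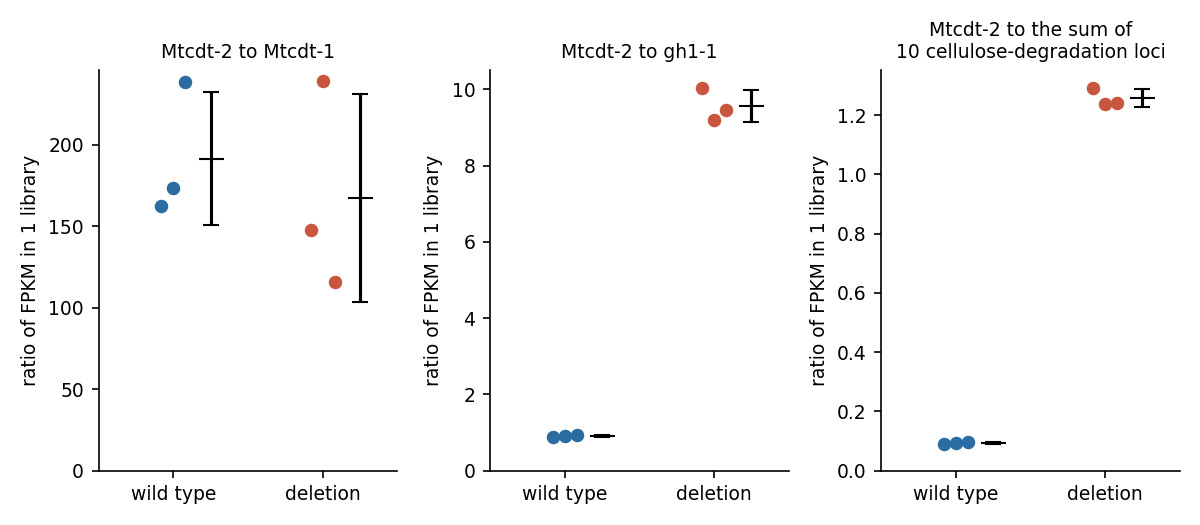
Ratio of FPKM values within 1 library (linear axes from 0) of Mtcdt-2 to Mtcdt-1, to the β-glucosidase locus gh1-1 and to the sum of the 10 cellulose-degradation loci. Points are libraries of the wild type (blue) and the deletion strain (red), with the mean and 1 SD beside them: the first ratio overlaps between strains, at 115.8 to 239.0, and the other two do not.

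The order of levels changed accordingly. In the wild type 3 of the 10 loci were above Mtcdt-2, namely MYCTH_112089, cbh2 and gh1-1. The locus next below it was the endoglucanase locus MYCTH_86753 (Mtegl2), a gene of the study's title, at 95.9 ± 1.2 FPKM. Neither neighbour in that order, gh1-1 or Mtegl2, overlapped with Mtcdt-2 over the 3 libraries. These gaps are small and the order of the 3 genes is by FPKM only, since replicates do not cover errors shared by all libraries. In the deletion strain none of the 10 was above Mtcdt-2, and the highest of them, cbh2, was at 80.5 FPKM. The ratio of mean Mtcdt-2 to mean Mtegl2 went from 1.16 to 15.0.

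Mtcdt-1 lay below all 10 loci in the wild type. In the deletion strain 1 locus was below it, the endoglucanase locus MYCTH_111372 (eg1), named here after its values were seen. That locus went from 28.6 ± 1.94 to 0.394 ± 0.155 FPKM (SD, n = 3). The locus next above Mtcdt-1 in the deletion strain was MYCTH_46583, a lytic polysaccharide monooxygenase locus at 2.95, 2.15 and 2.80 FPKM. The highest Mtcdt-1 value, 2.05 FPKM, was under the lowest of these 3.

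**Figure D4:**
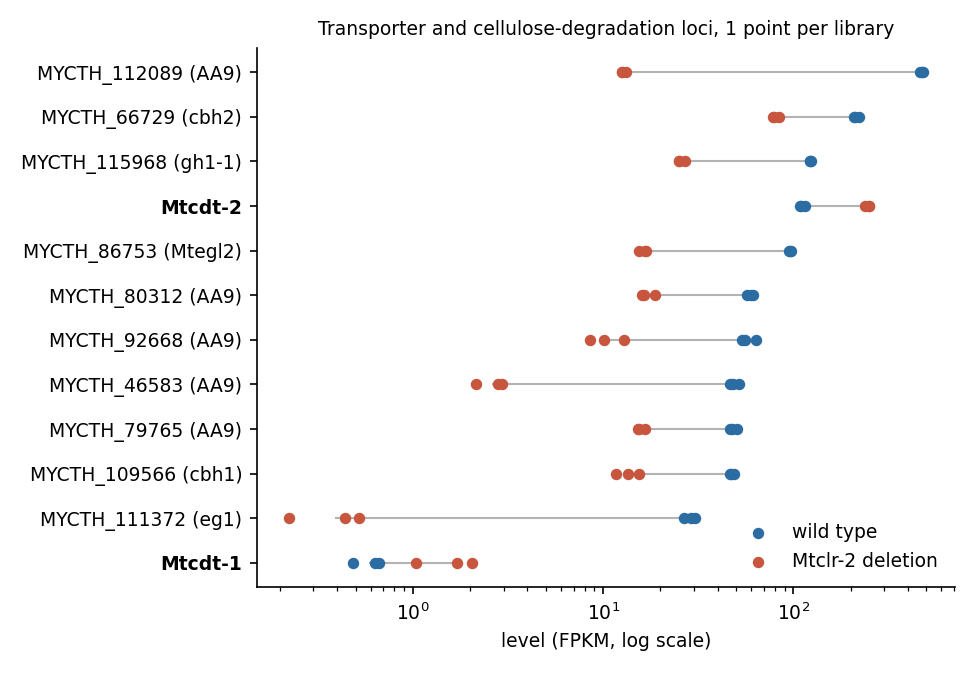
Level in FPKM (log axis) of both transporters and the 10 listed cellulose-degradation loci, 1 point per library, wild type in blue and deletion strain in red, ordered by the wild-type mean, with a grey line joining the strain means. The red points lie to the right of the blue ones for Mtcdt-1 and Mtcdt-2 and to the left for the 10 enzyme loci.

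The 5 listed genes with the profile most like each transporter were found by the Euclidean distance between log2(FPKM + 1) values over the 6 libraries, each gene centred on its own mean. For Mtcdt-2 they were MYCTH_2314413, MYCTH_2316157, MYCTH_2296300, MYCTH_2303233 and MYCTH_2306830, at distances of 0.080 to 0.1004. The nearest, MYCTH_2314413, was a more abundant transcript that went from 554.8 ± 13.8 to 1249.5 ± 4.2 FPKM, 2.25-fold higher. MYCTH_2303233 was also close in level, at 117.5 ± 5.5 and 248.2 ± 5.0 FPKM, 2.11-fold higher (SD, n = 3 for each).

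For Mtcdt-1 they were MYCTH_2119011, MYCTH_2299840, MYCTH_98330, MYCTH_52839 and MYCTH_2308415, at larger distances of 0.239 to 0.319. The nearest, MYCTH_2119011, went from 0.479 ± 0.117 to 1.60 ± 0.56 FPKM, and like Mtcdt-1 it was lowest in deletion replicate 2 among the deletion libraries, at 0.959 FPKM. All 10 of these genes carry only a locus tag in the RefSeq gene table. Profiles over 6 libraries of 2 strains carry mainly the strain difference, so likeness here is a description.

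In the RefSeq gene order both transporters lie on chromosome 1, with 148 protein-coding genes between them, of which 37 are in the table. Of the 12 genes within 3 places of either transporter, 3 were in the table, and the other 9 were not analysed here. The gene next to Mtcdt-1, MYCTH_2295445, was lower in the deletion strain, going from 13.1 ± 0.85 to 5.90 ± 0.35 FPKM (limma log2 change -1.03, adjusted p = 1.97e-06). The gene beyond it, MYCTH_2295444, was higher, going from 12.6 ± 0.87 to 94.4 ± 2.0 FPKM, 7.47-fold (limma log2 change 2.81, adjusted p = 3.58e-11). Neither direct neighbour of Mtcdt-2 was in the table. The listed gene 3 places away, MYCTH_2295774, was 2.55-fold lower, going from 15.4 ± 1.15 to 6.04 ± 0.28 FPKM. The nearest listed gene was thus lower for each transporter, as were 59.2% of all listed genes by the limma test, while MYCTH_2295444 was higher. With 9 of the 12 neighbours not analysed, a change shared along the chromosome was not tested.

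The sizes of both rises depend on scaling. Dividing by median-of-ratios factors, which treat the median listed gene as unchanged, moved the median log2 change of all genes by 0.92. It moved Mtcdt-1 to 1.18 and Mtcdt-2, as given above, to 2.15 on the log2(FPKM + 1) scale. No listed gene meets that assumption in FPKM as deposited, since each differs at least 2-fold, with 1323 lower and 905 higher. The values with these factors thus show dependence on scaling and are no better estimate of the change. Relative to the median of all genes, Mtcdt-2 was higher by 2.11 as deposited and by 2.20 with these factors, and Mtcdt-1 by 1.66 and 1.23. Both stayed higher under every scaling and left-out library tried. A minimum mean of 5 FPKM leaves Mtcdt-1 out, and a minimum of 1 keeps it only through its deletion libraries, so its value there says nothing of stability.

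**Figure D5:**
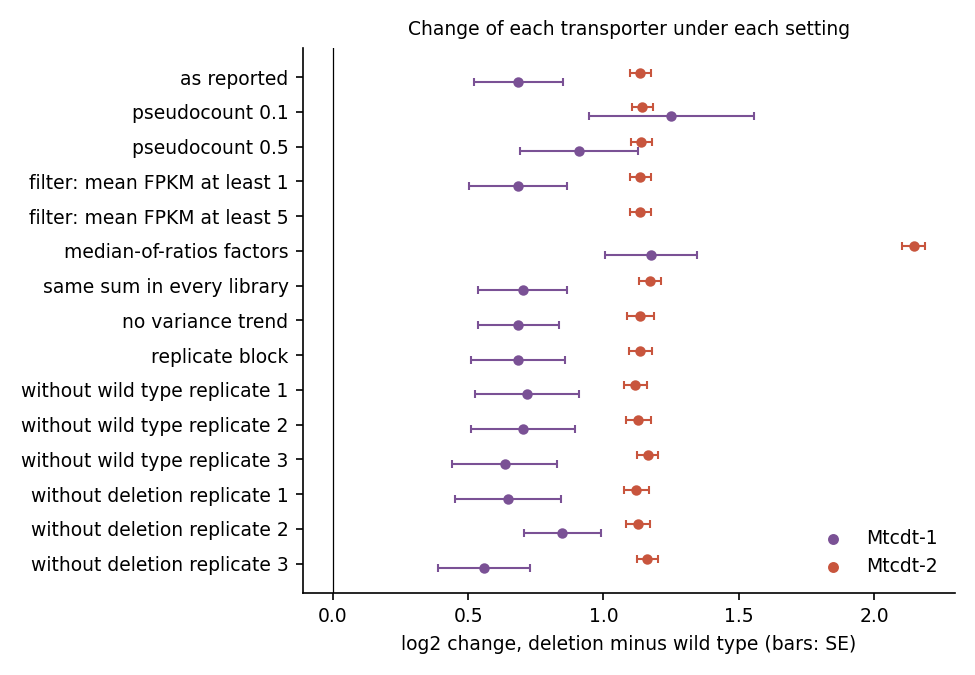
Log2 change, deletion minus wild type (horizontal axis, with SE bars), of Mtcdt-1 (purple) and Mtcdt-2 (red) as reported and under each other setting. Every value lies to the right of 0, from 0.56 to 1.25 for Mtcdt-1 and from 1.12 to 2.15 for Mtcdt-2, and Mtcdt-1 has no value with the filter at a mean of 5 FPKM.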

How the data were processed

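The authors deposited FPKM values in 1 column for each library, and the library names in the labels tie columns to samples. The submitters' processing notes name HISAT2, RSEM, StringTie 1.3.1, fastp 0.18.0 and DESeq2. Settings, strand handling and genome build were not given in the sources used here, so no coordinates are printed and reads of overlapping antisense genes cannot be told apart. The table is a selection of genes.

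Differences were tested with limma 3.58.1 (R 4.3.3) on log2(FPKM + 1) of all 2228 genes, with a variance trend, no filter, two-sided, and Benjamini-Hochberg adjustment over all of them. A filter at a mean of 1 FPKM would have admitted Mtcdt-1 only through its deletion libraries. Single values were compared by exact permutation (scipy 1.17.1). The fit was tested on simulated data in which most genes were unchanged. Every gene of the real table differs at least 2-fold, so that test does not bear on the calls made here.

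Depth was sought between 10 and 40 M fragments as the step on which most products of FPKM and RefSeq gene length (assembly ASM22609v1) under 0.5 fell, within 1% of 1 to 4 steps. Intervals from it cover counting error only.

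The transporters, the recalled loci and the tests were chosen with earlier results of these data known. Genes named are both transporters, the 3 most abundant recalled loci, the 5 nearest profiles and the neighbours within 3 places. The sets within 2-fold of a level, Mtegl2, eg1 and MYCTH_46583 were added after values were seen. The 3 lists planned by protein sequence were not made, since no sequence was used here. Alternatives were other pseudocounts, filters, scalings, a replicate block and leaving out each library.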

Additional observations from a re-analysis of the deposited data

How the results depend on the processing

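Both transporters kept their direction and their side of the limma threshold under every alternative that gave a value. The log2 change of Mtcdt-1 ranged from 0.56 to 1.25 (adjusted p 8.86e-05 to 0.0118, 13 alternatives) and that of Mtcdt-2 from 1.12 to 2.15 (adjusted p 2.62e-12 to 1.36e-06, 14 alternatives). A minimum mean of 5 FPKM leaves no value for Mtcdt-1, and with a minimum of 1 FPKM it passed only through its deletion libraries, so that alternative is no support for it. The table itself was selected on the same difference, so this outcome was largely set beforehand. Leaving out 1 library gave log2 changes of 0.56 to 0.85 for Mtcdt-1 and 1.12 to 1.16 for Mtcdt-2.

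The log2 ratio of Mtcdt-2 to Mtcdt-1 reversed its difference between strains, from -0.24 to 0.45, with a pseudocount of 1 (exact permutation p = 0.2). The construction shows the cause, since 1 FPKM is larger than each of the 3 wild-type values of Mtcdt-1. Leaving out 1 library gave -0.53 to -0.01, with exact permutation p-values of 0.2 to 1 over those libraries. The summed level differed by 133 to 139 FPKM with 1 library left out, and by 270.9 FPKM with median-of-ratios factors.

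With those factors 722 genes passed as lower in place of 1320, while 904 in place of 901 passed as higher, so that 55.6% in place of 40.6% of the passing genes were higher. The factors assume an unchanged median gene, and the listed genes were selected to differ. These counts, and the summed level with the same factors, thus show only dependence on scaling. All 10 cellulose-degradation loci passed as lower in all 14 alternatives. The replicate block left the log2 changes at 0.69 (adjusted p = 0.00372) and 1.14 (adjusted p = 3.97e-09), and 2215 in place of 2221 genes passed. The sources used here do not say whether the replicate numbers pair cultures. Same-numbered libraries deviated together with r of -0.005, 0.031 and 0.082, and the other pairs with r of -0.064 to 0.040. Not every library correlated best with its own number. With 3 libraries per strain these values cannot decide whether the numbers mark pairs. The alternatives for the 3 lists by protein sequence were not run. Mtcdt-1 rests on about 14 to 17 fragments per wild-type library.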
